A study of Rattus norvegicus with 16 samples.

Results

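The interferon response genes described here are 33 genes of rat knee cartilage, each taken from the deposited expression table as the row that carries the symbol of 1 of 34 named members. Where a symbol had several rows, the row with the highest mean FPKM (fragments scaled to gene length and to sequencing depth) over the 16 libraries was kept. No row carried the symbol Oas1b, which was not analysed here. The table held 23552 genes, of which 14337 were expressed enough to be tested, and all 33 members were among these. The rule used the symbols, with the mean FPKM over all libraries only to choose between rows, and no difference between groups. No analysed symbol had several rows. The list of members itself was chosen with earlier results of these data known.

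RNA was sequenced from 16 libraries in 4 groups of 4, all from the knee cartilage of rats aged 10 weeks. The groups were healthy cartilage (Sham in the library names), osteoarthritic cartilage (PBS) and osteoarthritic cartilage that received a drug and cells either with hyaluronic acid (HA; HCD in the names) or with a coacervate (CCD). The last 2 groups are called HA-treated and coacervate-treated here, and cells and drug were common to both. A coacervate is a polymer-rich liquid droplet phase used as a carrier. Drug, cells, polymer, rat strain and the way osteoarthritis was brought about are not given in the labels, and nothing in them ties replicates to separate animals. The p-values therefore measure the spread between these libraries, which may be technical.

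Interferons are cytokines released after a cell senses viral or displaced nucleic acid. Type I interferons signal through the kinases Jak1 and Tyk2 to a complex that includes Stat2 and Irf9 and binds the interferon-stimulated response element, while interferon gamma acts on genes through the gamma-activated site. The genes they induce encode antiviral proteins, sensors and transcription factors that strengthen the response, and subunits of the immunoproteasome, which cuts peptides for antigen display. In joints, interferon-induced genes are known from inflamed synovium and from the blood and marrow cells next to cartilage and bone.

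Total counts ran from 36988722 to 50725189 per library, and from 18627 to 19457 genes had a count above 0. Markers of cartilage were high, with a mean of 373 FPKM for Col2a1 (type II collagen) and 23.7 for Acan (aggrecan), while Sox9, their transcription factor, had 1.899. Other cells were present too: Csf1r (macrophages) had a mean of 56.4 FPKM, S100a9 (neutrophils) 5679 and Acta1 (skeletal muscle) 1111, and haemoglobin genes took 9.57% to 20.6% of all counts. Siglech, which marks plasmacytoid dendritic cells, a main source of type I interferon, had 0.566 FPKM. The libraries are bulk tissue, in which fewer cells of a type and less RNA per cell cannot be told apart. Osteoarthritic replicates 2 and 3 stood apart by haemoglobin (20.6% and 20.0%) and held the highest value of 19.9% and 11.2% of all tested genes. Medians and named members of comparisons with the osteoarthritic group are therefore also given without them, which leaves 2 osteoarthritic libraries. Coacervate-treated replicate 3 held the highest value of 12.1% of all tested genes, more than osteoarthritic replicate 3, with 12.3% haemoglobin. It was left out only where each library was left out in turn.

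The promoters of the members were read from RefSeq (build GRCr8) as windows of 300 bases, 250 before and 50 after each gene's start, and 25 of the 33 members matched by symbol. The windows were searched on both strands for GAAANNGAAA, the core of the interferon-stimulated response element, and for TTCNNNGAA, the core of the gamma-activated site, which reads the same on both strands. GAAANNGAAA stood in 16 of the 25 windows (64.0%) and in 1312 of 33469 windows of all genes (3.92%). TTCNNNGAA stood in 9 of the 25 (36.0%) and in 8.87% of all windows. The sequences below are examples from members that held a motif, with the motif in capitals and 12 bases on each side. Stat2, Cmpk2, Psmb9, Mx1, Oasl and Parp9 held neither motif. Ifitm3 and Xaf1 held GAAANNGAAA but are not printed. Irf1, Irf8 and Irf9 held TTCNNNGAA without GAAANNGAAA, whereas Irf7, Oas1a, Isg20, Rsad2, Ifi27 and Gbp2 held GAAANNGAAA. Oas1a held both motifs, and the GAAANNGAAA match printed for it overlaps another that begins 6 bases further on. Irf8 and Ifi27 each held a further match of the motif printed for them.
Irf1, chr10:38417781-38417813, plus strand: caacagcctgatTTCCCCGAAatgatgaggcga
Irf8, chr19:65699092-65699124, plus strand: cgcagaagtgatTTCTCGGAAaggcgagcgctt
Irf9, chr15:33065725-33065757, plus strand: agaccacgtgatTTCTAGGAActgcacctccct
Irf7, chr1:205800071-205800104, plus strand: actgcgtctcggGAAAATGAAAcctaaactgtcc
Oas1a, chr12:41330413-41330446, plus strand: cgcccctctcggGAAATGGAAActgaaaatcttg
Isg20, chr1:142239955-142239988, plus strand: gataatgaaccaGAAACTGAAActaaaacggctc
Rsad2, chr6:48788246-48788279, plus strand: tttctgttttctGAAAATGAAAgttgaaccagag
Ifi27, chr6:128355216-128355249, plus strand: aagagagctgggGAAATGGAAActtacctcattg
Gbp2, chr2:234005684-234005717, minus strand: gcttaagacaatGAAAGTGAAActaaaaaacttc

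The printed matches lay 142 bases before the start of Irf1, 180 before Irf8, 99 before Irf9, 69 before Irf7, 41 before Oas1a, 92 before Isg20, 147 before Rsad2, 84 before Ifi27 and 31 before Gbp2, and the further ones 161 before Irf8 and 169 before Ifi27. A match of these letters is a description of the sequence and not a shown binding site.

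Levels between genes were compared per length, as mean FPKM over the 16 libraries, and ran from 2.52 (Ifi44l) to 120.5 (Rsad2). The antiviral effectors held the 3 highest levels. Rsad2 (viperin, an enzyme that makes a chain-ending nucleotide) was highest, followed by Ifitm3 (77.8 FPKM), a membrane protein that blocks viral fusion, and Bst2 (51.3 FPKM), the tether that holds budding virions on the cell. Among the transcription factors, Irf9 stood at 44.6, Irf7 at 37.8, Irf8 at 37.1, Irf1 at 19.8 and Stat2 at 17.3 FPKM. The RNA sensors were low, with 6.004 FPKM for Ifih1 (MDA5), 3.48 for Ddx58 (RIG-I) and 3.19 for Dhx58 (LGP2). Isg15, a ubiquitin-like protein that is attached to other proteins, had 3.86 FPKM, and Usp18, the protease that removes it, had 4.78. The immunoproteasome subunits Psmb8 and Psmb9 had 24.4 and 19.4 FPKM. The lowest count of any member in any library was 74 (Ifi44l).

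No member passed the threshold (an adjusted p under 0.05 in edgeR's quasi-likelihood test, with Benjamini-Hochberg adjustment over all 14337 genes) in any of the 6 comparisons between groups. What varied most was the level in single libraries of each group. The level of each member was set relative to its own mean over the 16 libraries on a log2 scale, and these relative levels were averaged over the 33 members in each library. The mean relative log2 level of healthy replicates 1 to 4 was 0.32, -0.21, -0.28 and 0.0025. In osteoarthritic replicates 1 to 4 it was -0.55, 0.17, 0.28 and 0.20. HA-treated replicates 1 to 4 had 0.33, -0.13, -0.19 and -0.24, and coacervate-treated ones 0.49, -0.21, -0.11 and 0.12. Each group thus spanned values above and below 0 and all 4 overlapped, with group means of -0.041 ± 0.27 (healthy), 0.025 ± 0.39 (osteoarthritic), -0.057 ± 0.26 (HA-treated) and 0.073 ± 0.31 (coacervate-treated; SD, n = 4 each).

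**Figure D1:**
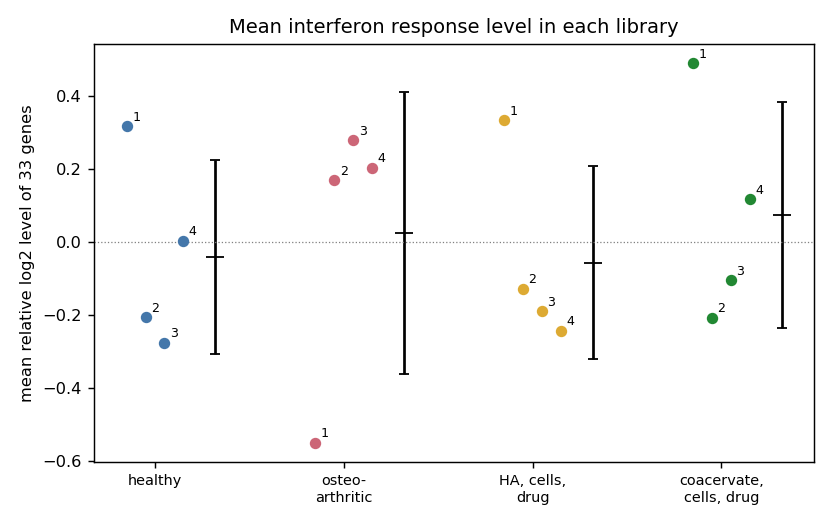
Mean relative log2 level of the 33 interferon response genes in each library (points, numbered by replicate) with the group mean and SD (bars, n = 4 libraries per group). Coacervate-treated replicate 1 is highest at 0.49 and osteoarthritic replicate 1 lowest at -0.55, and the groups overlap.

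The same libraries were high or low for many members at once. Coacervate-treated replicate 1 held the highest value of 14 of the 33 members, compared with 4.35% of all tested genes. These were Irf7, Irf9, Ddx58, Mx2, Oas1a, Oasl, Isg20, Cmpk2, Isg15, Usp18, Parp14, Rtp4, Ifi27 and Ifi44. HA-treated replicate 1 held the highest value of 6 members (6.08% of all tested genes), and osteoarthritic replicate 1 the lowest of 11 (8.63% of all tested genes), and for 22 members it was among the lowest 3 libraries. The summed markers of cell types in coacervate-treated replicate 1 were set against its group. Its macrophage and monocyte sum was 5865 CPM (counts scaled to library size), within the 5220 to 6923 of its group, its T cell and NK cell sum was 191 within 182 to 209, and its plasmacytoid dendritic cell sum of 207 was the lowest of 207 to 254. Its neutrophil sum of 7136 was the highest of its group (from 5193), as were its chondrocyte sum (4147, from 3383) and osteoclast sum (2286, from 1173). Its endothelial sum of 419 was the lowest (up to 599), and the remaining sums lay within the range. For osteoarthritic replicate 1 the macrophage and monocyte sum of 6934 and the neutrophil sum of 6545 were the lowest of its group, which reached 12555 and 19970, while its plasmacytoid dendritic cell sum of 224 was the highest (from 149). Its sums for chondrocytes (5551, from 2281), B cells (377, from 209) and endothelial cells (552, from 303) were also the highest. So were those for skeletal muscle (5999, from 3793) and osteoblasts (2290, from 1619), and the remaining sums lay within the range. All 13 macrophage and monocyte markers were above 0 in every library, as were 8 of 9 neutrophil and 10 of 11 T cell and NK cell markers. The plasmacytoid dendritic cell sum adds Siglech, Spib, Cox6a2, Pacsin1, Il3ra and Tcf4. Siglech had only 0.566 FPKM, and whether the other genes came from these cells was not tested, so the sum cannot stand for their number. The part of any of the cell types above in the level of the members was not tested.

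**Figure D2:**
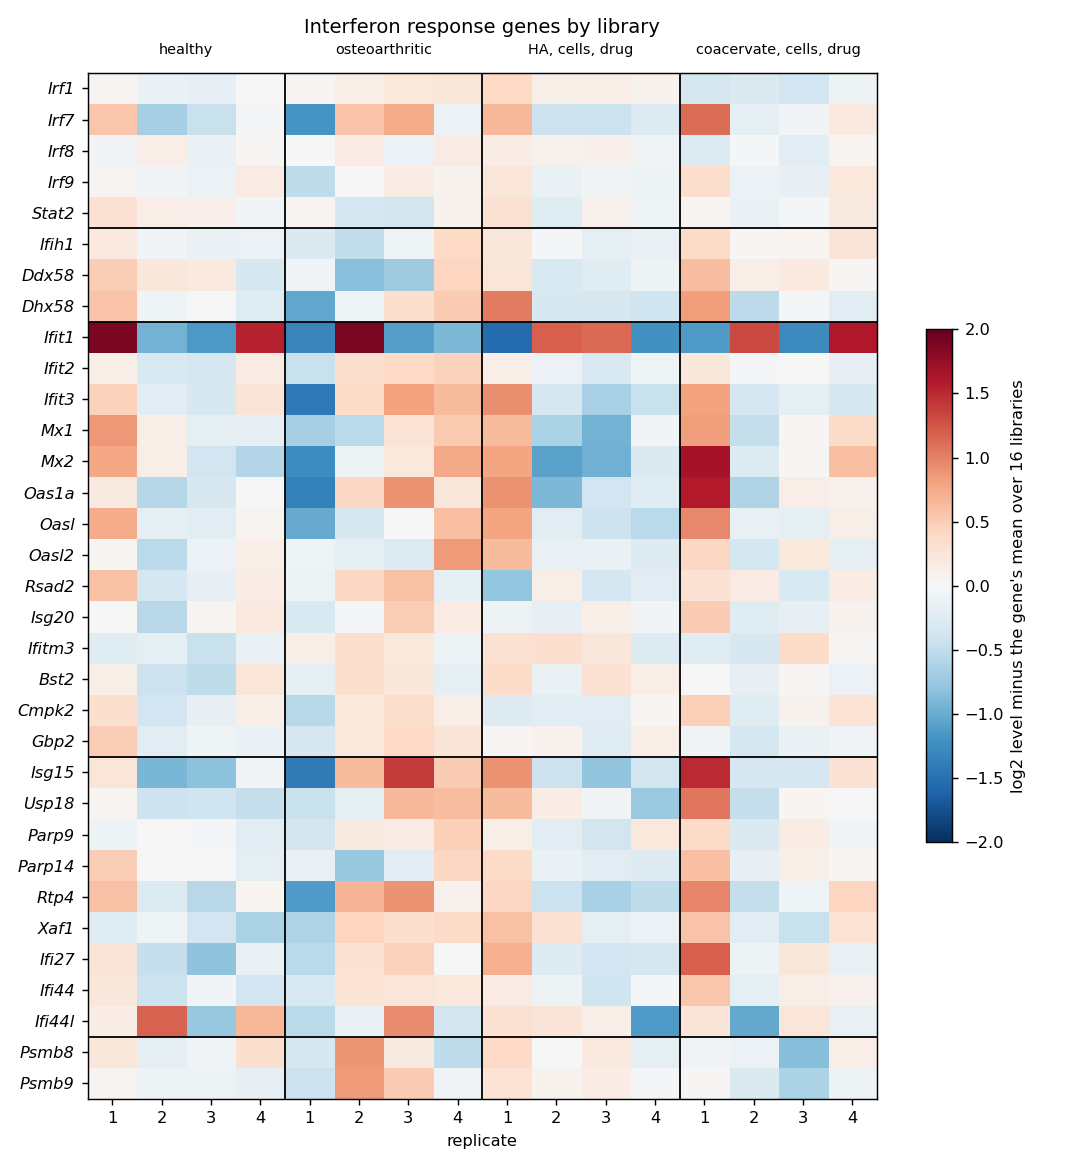
Log2 level of each of the 33 members (lines, grouped as transcription factors, RNA sensors, antiviral effectors, ISG15 system and other induced proteins, and immunoproteasome) in each library (columns), minus the gene's mean over the 16 libraries, with red above and blue below that mean. Coacervate-treated replicate 1 and HA-treated replicate 1 are red and osteoarthritic replicate 1 blue for most lines, and Irf1 and Irf8 are pale throughout.

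The members also varied more within groups than most genes. The SD of the log2 level within groups had a median of 0.386 over the members and 0.260 over all tested genes, and 26 of the 33 members were above the latter. Ifit1 reached the percentile 99.5 of all tested genes and Isg15 97.7, while Irf1 (7.66) and Irf8 (9.69) were among the steadiest. The 16 members with GAAANNGAAA in the promoter window had a median SD of 0.379 (range 0.239 to 0.787), and the 9 matched members without it 0.271 (range 0.120 to 0.588). Coacervate-treated replicate 1 held the highest value of 6 of the 16 and of 3 of the 9. The members without a matched window are not in this split. Their SDs were 1.53 (Ifit1), 0.873 (Isg15), 0.798 (Mx2), 0.654 (Rtp4), 0.595 (Dhx58), 0.528 (Usp18), 0.386 (Ddx58) and 0.280 (Ifit2). The split therefore cannot show how spread goes with the motif over all members.

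Irf7, the factor that amplifies type I interferon production, showed the spread between libraries well and is given, like Isg15, because of the values seen. Irf7 lies at chr1:214248837-214252456 (rn6), where it overlaps Phrf1 on the other strand (mean of 13.5 FPKM), so reads of the pair may be mixed if counting ignored strand. In the order of replicates 1 to 4, which is kept for all such series of values, it had 117, 50.3, 58.4 and 77.4 normalised CPM in healthy and 35.3, 118, 133 and 73.6 in osteoarthritic libraries. It had 126, 59.8, 59.6 and 65.9 in HA-treated and 173, 70.2, 76.7 and 91.4 in coacervate-treated libraries. Replicate 1 was the highest library of 3 groups and the lowest of the osteoarthritic group. Isg15 followed the same order of extremes, with 5.96, 2.66, 2.83 and 4.84 CPM in healthy and 1.87, 7.86, 13.3 and 7.16 in osteoarthritic libraries. Its values were 9.43, 3.76, 2.89 and 3.88 in HA-treated and 14.3, 3.97, 3.97 and 6.14 in coacervate-treated libraries. The span from lowest to highest library was 4.905-fold for Irf7 and 7.66-fold for Isg15. Neither gene passed in osteoarthritic against healthy libraries, with log2 fold changes of 0.25 ± 0.40 (± SE) for Irf7 and 0.89 ± 0.55 for Isg15 (edgeR, adjusted p = 0.757 and 0.392). Without osteoarthritic replicates 2 and 3 these were -0.49 and 0.13.

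Osteoarthritic against healthy cartilage asks what the disease changed. Here 0 of 33 members passed in edgeR, compared with 0.502% of all tested genes, and 0 passed in DESeq2 or in limma. At an unadjusted p under 0.05 there was 1 member, against 17.8% of all genes. Of the 33 fold changes 22 were above 0 (52.1% of all genes), with a median log2 fold change of 0.16 beside 0.015 for all genes, and in limma with pseudocount 0.1 these medians were -0.0093 and -0.13. The ISG15 system and other induced proteins had the highest median (0.30, 7 of 9 above 0), and the 3 RNA sensors were all below 0 (median -0.058). Without osteoarthritic replicate 1 the members' median was 0.26, and without replicate 3 it was 0.034. Without replicates 2 and 3 it turned to -0.056 (13 of 33 above 0; -0.020 for all genes), with 0.11 for the ISG15 system and other induced proteins (6 of 9 above 0) and 0.029 for the RNA sensors (2 of 3 above 0).

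Ifitm3, at chr1:213810696-213811901 (rn6), was the only member whose groups did not overlap, which held for 3.15% of all tested genes in this direction. It had 52.3, 54.4, 45.3 and 56.4 CPM in healthy and 67.2, 77.6, 71.3 and 57.5 in osteoarthritic libraries. It had 76.5, 78.0, 72.1 and 51.01 CPM in HA-treated and 52.1, 49.3, 79.1 and 62.6 in coacervate-treated libraries. The lowest osteoarthritic library lay just above the highest healthy one, and the treated groups spread over both. The log2 fold change of osteoarthritic against healthy was 0.39 ± 0.16, with an adjusted p of 0.235 in edgeR, and 0.26 without osteoarthritic replicates 2 and 3. Ifitm3 shares sequence with its neighbours Ifitm1 and Ifitm2, so reads could be split between them.

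Xaf1, which binds an inhibitor of apoptosis, had 7.07, 7.89, 6.41 and 5.38 CPM in healthy and 5.51, 11.3, 10.4 and 10.9 in osteoarthritic libraries. It had 12.5, 10.3, 7.40 and 7.69 in HA-treated and 12.5, 7.19, 6.15 and 10.1 in coacervate-treated libraries. Osteoarthritic replicates 2 to 4 were above all healthy libraries and replicate 1 fell within them, and the log2 fold change was 0.51 ± 0.26 (edgeR, adjusted p = 0.314). Stat2, a transcription factor of type I interferon signalling, had 95.6, 86.2, 84.0 and 75.8 CPM in healthy and 81.2, 61.4, 61.1 and 82.7 in osteoarthritic libraries. It had 97.0, 66.3, 83.4 and 73.7 in HA-treated and 81.4, 71.9, 77.0 and 89.3 in coacervate-treated libraries. Osteoarthritic replicates 2 and 3 were the lowest of all 16, and the log2 fold change of osteoarthritic against healthy was -0.25 ± 0.14 (edgeR, adjusted p = 0.33). For Irf1 it was 0.21 ± 0.098 (edgeR, adjusted p = 0.283), with overlapping groups. Without osteoarthritic replicates 2 and 3 the values were 0.29 for Xaf1, -0.063 for Stat2 and 0.19 for Irf1.

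**Figure D3:**
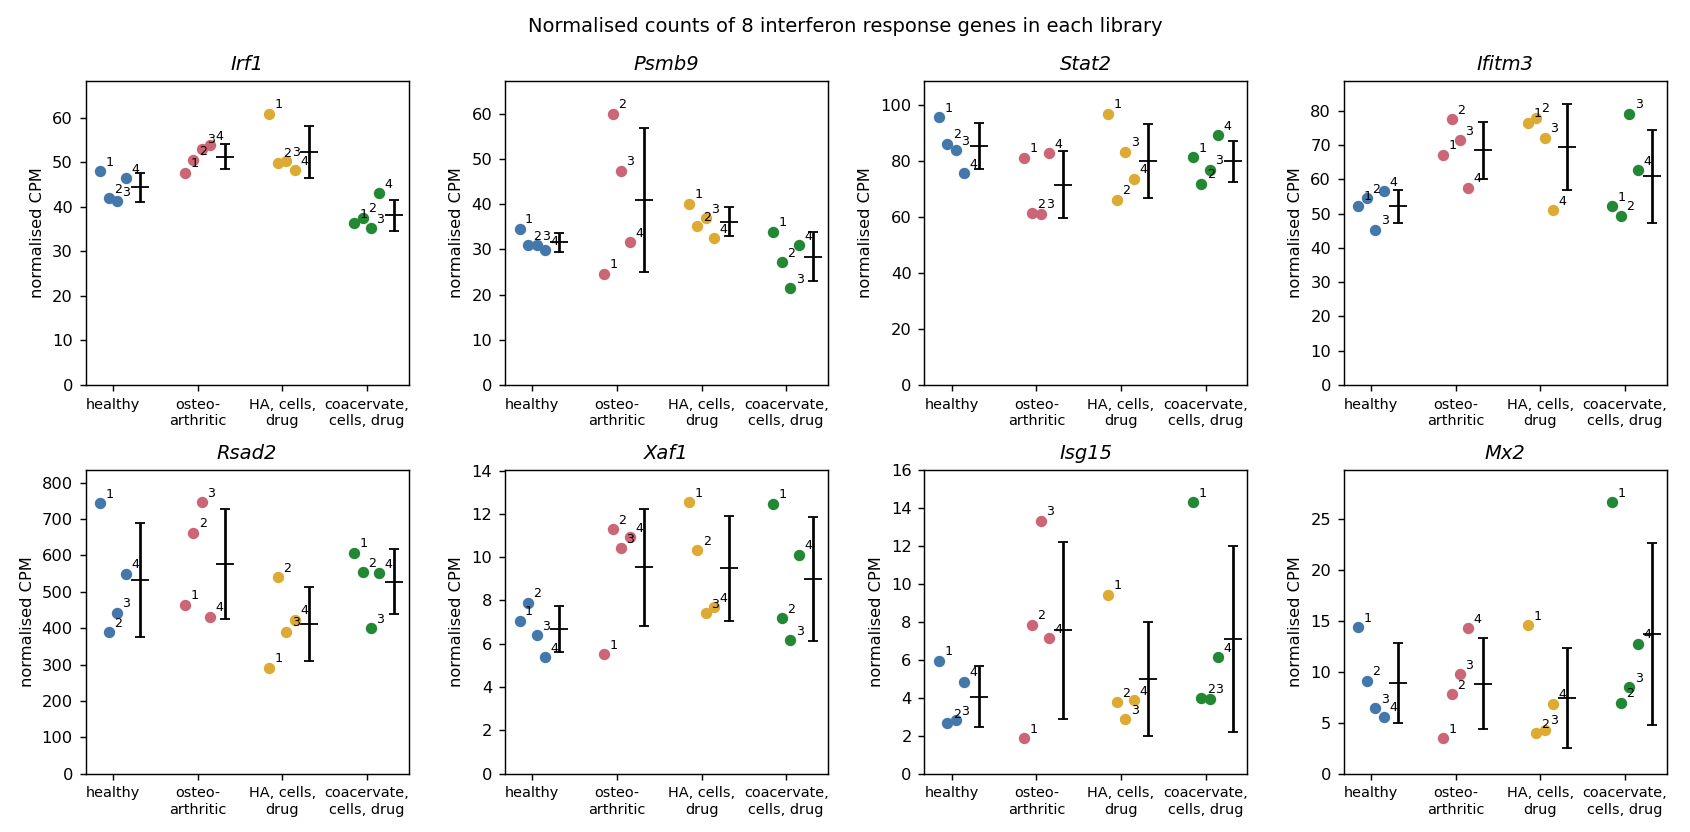
Normalised CPM of 8 members in each library (points, numbered by replicate; linear axes from 0) with the group mean and SD (bars, n = 4 libraries per group). Irf1 is lower in all 4 coacervate-treated than in all 4 osteoarthritic libraries, while Isg15 and Mx2 peak in coacervate-treated replicate 1.

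HA-treated against osteoarthritic cartilage asks what HA with cells and drug changed. No member passed in edgeR, DESeq2 or limma, and 0% of all tested genes passed in edgeR. No member had an unadjusted p under 0.05, compared with 6.33% of all genes, and no member's groups were free of overlap (1.08% of all genes in the higher and 0.823% in the lower direction). Of the 33 fold changes 12 were above 0 (47.8% of all genes), and their median was -0.10 beside -0.011 for all genes, which became 0.012 and 0.10 by total counts and 0.047 and 0.15 in limma with pseudocount 0.1. Without osteoarthritic replicate 1 the median in edgeR was -0.29, without HA-treated replicate 4 it was 0.0013, and without osteoarthritic replicates 2 and 3 it was 0.020 (20 of 33 above 0; -0.0021 for all genes).

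Rsad2, at chr6:45655954-45669148 (rn6), had the smallest p of this comparison. It had 464, 663, 746 and 432 CPM in osteoarthritic and 291, 539, 391 and 424 in HA-treated libraries. Its values were 744, 389, 442 and 550.0 in healthy and 607, 553, 400.5 and 552 in coacervate-treated libraries. HA-treated replicate 1 was the lowest of all 16 libraries, where 29 of the 33 members were above their own mean, and the log2 fold change was -0.49 ± 0.23 (edgeR, adjusted p = 0.745). The highest of the osteoarthritic values were those of replicates 2 and 3, without which the log2 fold change was -0.12. Its neighbour Cmpk2, 14.1 kb away, is a nucleotide kinase that supplies the substrate of viperin. Cmpk2 had 80.5, 48.9, 57.3 and 69.8 CPM in healthy and 43.8, 74.4, 82.2 and 70.2 in osteoarthritic libraries. It had 53.7, 55.3, 55.5 and 66.0 in HA-treated and 89.5, 54.5, 67.6 and 77.5 in coacervate-treated libraries. Healthy replicate 1 and osteoarthritic replicate 3 were among the highest 3 libraries for both genes, and the 4 HA-treated libraries lay between 53.7 and 66.0 CPM for Cmpk2.

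Ifit2, which binds viral RNA and blocks its translation, had 22.03, 37.7, 39.9 and 41.3 CPM in osteoarthritic and 33.3, 27.7, 24.4 and 28.4 in HA-treated libraries. It had 32.6, 24.3, 23.8 and 33.8 in healthy and 35.3, 29.6, 29.9 and 26.9 in coacervate-treated libraries. Osteoarthritic replicates 2 to 4 were the highest 3 of all and replicate 1 was the lowest, and the log2 fold change of HA-treated against osteoarthritic was -0.31 ± 0.18 (edgeR, adjusted p = 0.75) and -0.15 without osteoarthritic replicates 2 and 3. Rtp4, a receptor-transporting protein induced by interferon, had 3.05, 10.9, 12.7 and 7.20 CPM in osteoarthritic and 9.01, 5.02, 4.29 and 4.76 in HA-treated libraries. It had 10.2, 5.57, 4.58 and 6.96 in healthy and 13.4, 4.87, 6.38 and 9.16 in coacervate-treated libraries. Its log2 fold change of -0.55 ± 0.41 (edgeR, adjusted p = 0.784) turned to 0.18 without osteoarthritic replicates 2 and 3. That of Stat2, 0.16 ± 0.14 (edgeR, adjusted p = 0.791), turned to -0.032 without the same libraries.

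Coacervate-treated against osteoarthritic cartilage asks what the coacervate with cells and drug changed. In edgeR 0 of 33 members passed, compared with 0.146% of all tested genes. DESeq2 called 1 member, Irf1, compared with 5.56% of all tested genes, and limma none. At an unadjusted p under 0.05 there were 2 members, against 21.8% of all genes. Fold changes above 0 numbered 17 of 33 (48.8% of all genes), with a median of 0.0037 beside -0.010 for all genes, and in limma with pseudocount 0.1 of 0.11 beside 0.11. The median in edgeR was -0.21 without coacervate-treated replicate 1, 0.11 without osteoarthritic replicate 3 and 0.14 without osteoarthritic replicates 2 and 3 (25 of 33 above 0; 0.017 for all genes). The 3 RNA sensors were all above 0 (median 0.27) and both immunoproteasome subunits below 0 (median -0.44). Without osteoarthritic replicates 2 and 3 the sensors had a median of 0.097, and both subunits were above 0 (median 0.13).

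Irf1, a transcription factor induced by interferon gamma, lies at chr10:39109522-39116531 (rn6), and its promoter window holds the TTCNNNGAA match printed above. It had 47.9, 41.9, 41.2 and 46.4 CPM in healthy and 47.6, 50.4, 53.0 and 53.8 in osteoarthritic libraries. It had 60.9, 49.9, 50.2 and 48.1 in HA-treated and 36.3, 37.6, 35.2 and 43.0 in coacervate-treated libraries. All 4 coacervate-treated libraries were below all osteoarthritic and all HA-treated ones, an absence of overlap that 3.13% of all tested genes showed against the osteoarthritic group. The mean was 38.0 ± 3.47 CPM in coacervate-treated and 51.2 ± 2.79 in osteoarthritic libraries (SD, n = 4 each). The log2 fold change was -0.43 ± 0.098, with a 95% interval of -0.64 to -0.22, and the adjusted p of 0.0915 in edgeR missed the threshold. Irf1 passed in DESeq2 (adjusted p = 0.00261) and in edgeR without osteoarthritic replicate 1 (adjusted p = 0.0226) or without replicate 4 (adjusted p = 0.0363), with log2 fold changes of -0.43, -0.47 and -0.42. The shares of all tested genes that passed in these fits were 5.56%, 14.3% and 9.54%. Without osteoarthritic replicates 2 and 3 the log2 fold change was -0.41 (edgeR, adjusted p = 0.185). In all, Irf1 passed in 3 of 27 refits, over which its log2 fold change ran from -0.49 to -0.30. The largest adjusted p of these refits was 0.453, in edgeR with only the libraries compared. Summed markers of myeloid cells are given beside Irf1 for each group, with no relation computed library by library. The macrophage and monocyte sum was 5220 to 6923 CPM in coacervate-treated and 6934 to 12555 in osteoarthritic libraries, and the neutrophil sum 5193 to 7136 and 6545 to 19970. In HA-treated libraries these sums were 7584 to 9782 and 9052 to 10589, and in healthy libraries 5073 to 7275 and 7310 to 9080. Their part in the level of Irf1 was not tested.

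Psmb9, at chr20:3973420-3978845 (rn6), had 24.6, 60.0, 47.4 and 31.5 CPM in osteoarthritic and 33.9, 27.2, 21.5 and 30.9 in coacervate-treated libraries. It had 34.6, 30.9, 30.9 and 29.8 in healthy and 40.1, 35.0, 36.8 and 32.4 in HA-treated libraries. Osteoarthritic replicates 2 and 3 were the highest 2 of all 16, and coacervate-treated replicate 3 the lowest. The log2 fold change of coacervate-treated against osteoarthritic was -0.53 ± 0.21 (edgeR, adjusted p = 0.186). It was -0.72 without osteoarthritic replicate 1, which passed (edgeR, adjusted p = 0.0283), and 0.019 without osteoarthritic replicates 2 and 3. Psmb8, its neighbour at 11.8 kb on the other strand, ranged from 31.1 CPM in coacervate-treated replicate 3 to 104 in osteoarthritic replicate 2, and its log2 fold change was -0.35 ± 0.27, or 0.23 without osteoarthritic replicates 2 and 3. The libraries with the highest Psmb9 were those with the highest neutrophil sums (19970 and 13325 CPM) and haemoglobin shares, and coacervate-treated replicate 3 had the highest skeletal muscle sum (20254 CPM). The part of these cells in the result was not tested.

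Gbp2, a guanylate-binding protein that attacks the vacuoles of intracellular microbes, had 30.3, 44.1, 50.6 and 46.0 CPM in osteoarthritic and 36.5, 30.2, 35.1 and 36.8 in coacervate-treated libraries. It had 53.7, 33.2, 36.1 and 34.9 in healthy and 39.1, 40.8, 32.6 and 42.0 in HA-treated libraries. The coacervate-treated libraries reached 36.8 CPM and overlapped with the osteoarthritic ones, and the log2 fold change was -0.30 ± 0.17 (edgeR, adjusted p = 0.289), or -0.14 without osteoarthritic replicates 2 and 3. Ddx58 had 6.61, 3.82, 4.15 and 9.24 CPM in osteoarthritic and 10.5, 7.51, 7.85 and 6.92 in coacervate-treated libraries. It had 9.60, 8.04, 7.80 and 5.46 in healthy and 8.11, 5.52, 5.75 and 6.34 in HA-treated libraries. Osteoarthritic replicates 2 and 3 were the lowest of all 16, and the log2 fold change of 0.46 ± 0.26 did not pass (edgeR, adjusted p = 0.302). Without these libraries it was 0.053.

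**Figure D4:**
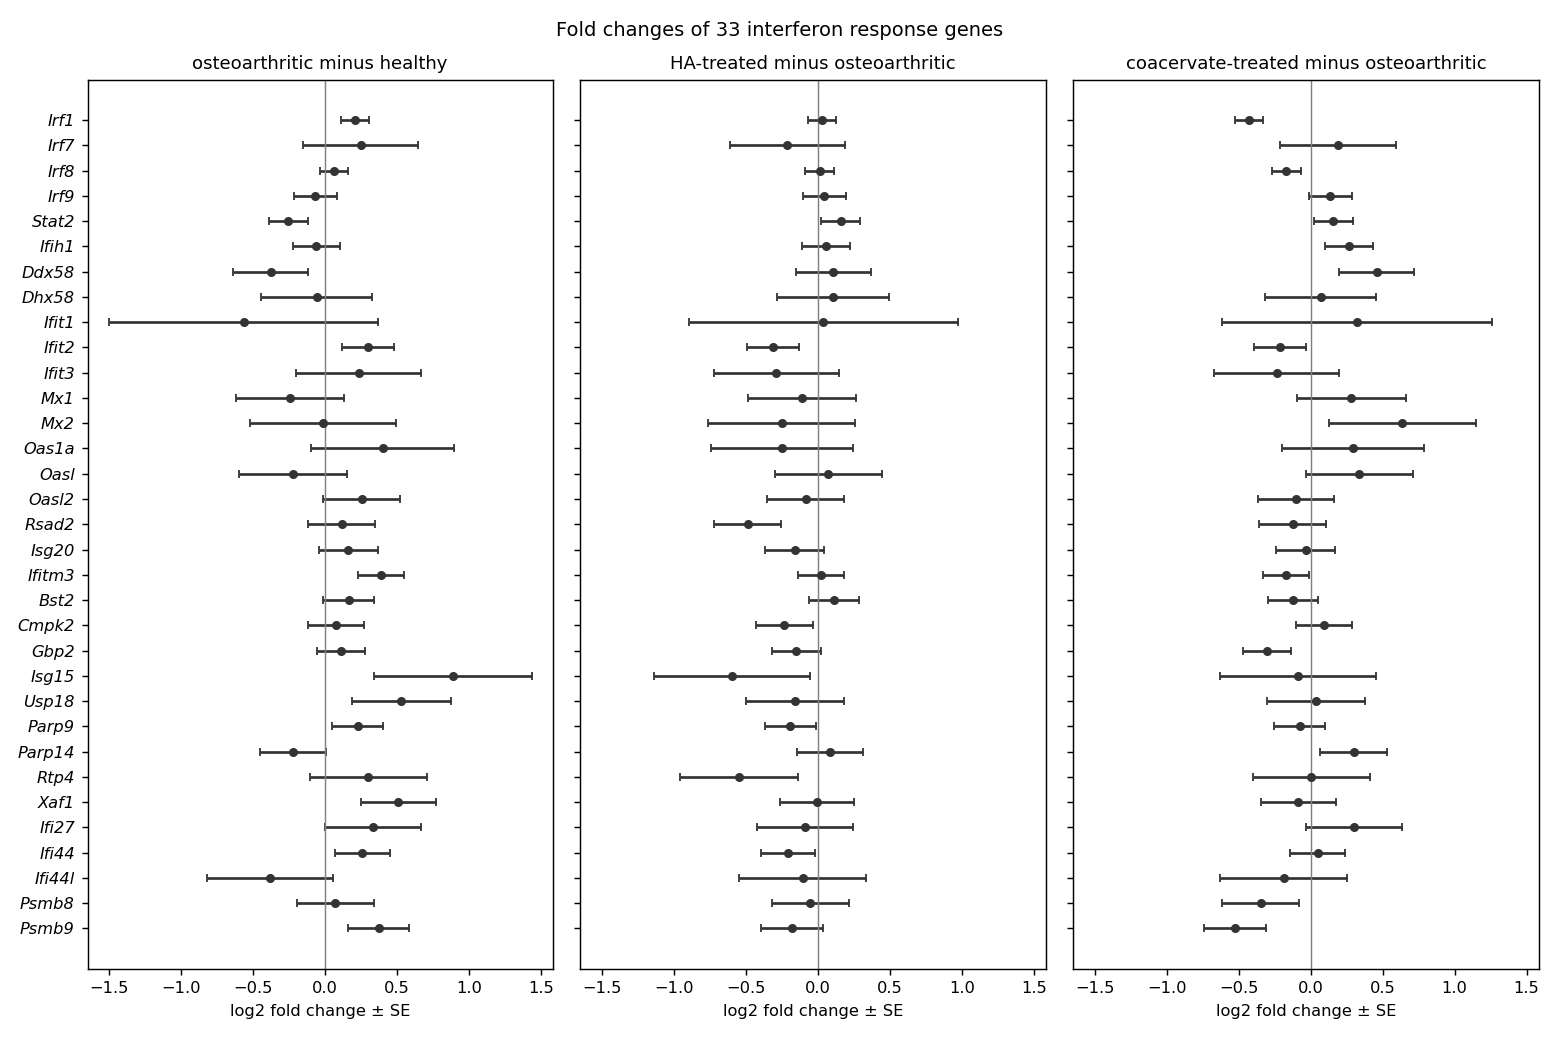
Log2 fold change of each of the 33 members with its SE (edgeR, 4 libraries per group) for osteoarthritic against healthy, HA-treated against osteoarthritic and coacervate-treated against osteoarthritic cartilage, on 1 common axis. Most error bars reach or come near 0, Ifit1 has the widest, and Irf1 lies at -0.43 in the third panel.

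The carriers were compared directly in coacervate-treated against HA-treated cartilage. In edgeR 0 of 33 members passed, as did 0% of all tested genes, DESeq2 called 1 member, Irf1, compared with 2.27% of all tested genes, and limma none. At an unadjusted p under 0.05 there was 1 member, against 10.4% of all genes. Fold changes above 0 numbered 21 of 33 (49.7% of all genes), with a median of 0.12 beside -0.0015 for all genes, and this median was -0.053 without coacervate-treated replicate 1. Irf1 was lower without overlap, as were 5.36% of all genes, with a log2 fold change of -0.46 ± 0.098 and a 95% interval of -0.67 to -0.25 (edgeR, adjusted p = 0.138). It passed in DESeq2 (adjusted p = 0.00263) and in edgeR without osteoarthritic replicates 2 and 3 (adjusted p = 0.0448), where 1.04% of all tested genes passed. Those libraries are not part of this comparison and enter it only through the shared fit, and the log2 fold change stayed at -0.46. With only the libraries compared no member passed (edgeR, smallest adjusted p = 0.121). In all, Irf1 passed here in 2 of 27 refits.

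Irf8, a factor of myeloid cells and B cells, had 134, 128, 130.1 and 115 CPM in HA-treated and 99.8, 118, 105 and 126 in coacervate-treated libraries. It had 116, 133, 109.7 and 122 in healthy and 121, 136, 112 and 135 in osteoarthritic libraries. The ranges overlapped and the log2 fold change was -0.18 ± 0.10 (edgeR, adjusted p = 0.586). Mx2, a GTPase that traps viral particles, had 14.5, 3.96, 4.31 and 6.86 CPM in HA-treated and 26.6, 6.95, 8.50 and 12.7 in coacervate-treated libraries. It had 14.4, 9.12, 6.43 and 5.59 in healthy and 3.49, 7.78, 9.74 and 14.3 in osteoarthritic libraries. Replicate 1 was the highest library of the healthy, HA-treated and coacervate-treated groups, and the log2 fold change was 0.89 ± 0.51 (edgeR, adjusted p = 0.604). For Cmpk2 it was 0.33 ± 0.20 (edgeR, adjusted p = 0.627).

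Against healthy cartilage, HA-treated libraries had 0 of 33 members past the threshold in edgeR (0.16% of all tested genes) and 0 in DESeq2 and limma, and coacervate-treated libraries had 0 in all 3 (0% of all tested genes in edgeR). At an unadjusted p under 0.05 there were 2 members for HA-treated (8.25% of all genes) and 1 for coacervate-treated libraries (3.85%). These comparisons share the healthy libraries. No member's groups were free of overlap in coacervate-treated against healthy cartilage (1.75% of all genes in the higher and 1.91% in the lower direction). The median log2 fold change was 0.0053 for HA-treated (18 of 33 and 50.4% of all genes above 0; 0.0021 for all genes) and 0.088 for coacervate-treated libraries (24 of 33 and 51.1% of all genes above 0; 0.0045 for all genes). Without replicate 1 of the treated group these medians were -0.12 and -0.010.

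Irf1 was above all healthy libraries in all 4 HA-treated ones, as were 5.08% of all genes, with a log2 fold change of 0.24 ± 0.098 (edgeR, adjusted p = 0.522). In coacervate-treated libraries it was -0.22 ± 0.098 (edgeR, adjusted p = 0.9998), with 1 library within the healthy range. Ifitm3 and Xaf1 had 0.41 ± 0.16 and 0.50 ± 0.26 in HA-treated against healthy libraries (edgeR, adjusted p = 0.475 and 0.665), and Xaf1 0.43 ± 0.26 in coacervate-treated ones. Bst2 had 53.2, 36.4, 34.2 and 57.7 CPM in healthy and 62.7, 44.4, 59.9 and 53.3 in HA-treated libraries, which overlapped. It had 42.5, 61.2, 57.1 and 42.8 in osteoarthritic and 49.1, 43.4, 49.7 and 45.1 in coacervate-treated libraries, and its log2 fold change of HA-treated against healthy was 0.28 ± 0.17 (edgeR, adjusted p = 0.79).

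Ifi27, a small membrane protein strongly induced by type I interferon, had 46.1, 27.8, 22.1 and 35.1 CPM in healthy and 87.7, 35.9, 45.0 and 34.8 in coacervate-treated libraries. It had 26.4, 46.8, 53.2 and 38.7 in osteoarthritic and 63.1, 32.3, 29.6 and 30.5 in HA-treated libraries. Coacervate-treated replicate 1 and HA-treated replicate 1 were the highest 2 of all 16, and the log2 fold change of coacervate-treated against healthy was 0.63 ± 0.33, which did not pass in edgeR. Usp18, which also damps signalling at the type I receptor, had 9.30, 6.77, 6.82 and 6.53 CPM in healthy and 18.9, 6.48, 9.30 and 9.02 in coacervate-treated libraries. It had 6.59, 7.93, 14.1 and 13.9 in osteoarthritic and 14.1, 10.00, 8.70 and 5.40 in HA-treated libraries. Coacervate-treated replicate 1 was again the highest, and the log2 fold change was 0.57 ± 0.34, which did not pass in edgeR.

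Ifit1, whose product binds capped viral RNA, fell into separate sets of libraries that crossed the groups, and is given because of the values seen. It lies at chr1:252944103-252946170 (rn6), 32.7 kb beyond Ifit3. It had 120.3, 16.7, 14.6 and 94.0 CPM in healthy and 13.03, 121, 15.0 and 17.3 in osteoarthritic libraries. It had 11.1, 74.7, 71.2 and 13.996 in HA-treated and 14.8, 81.1, 13.5 and 98.6 in coacervate-treated libraries. Thus 7 libraries from all 4 groups had 71.2 to 121 CPM and the other 9 had 11.1 to 17.3, with no library in the 4.10-fold gap between. Of the 14337 genes tested, 17 (Ifit1 included) had a gap as large between ordered libraries 4 and 13. The genes beside it did not split in this way. Ifit3 had 33.9, 20.9, 19.6 and 29.3 CPM in healthy and 43.1, 19.4, 21.6 and 19.7 in coacervate-treated libraries. Ifit1bl, between Ifit3 and Ifit1, had 89.8, 58.3, 72.0 and 88.5 in healthy and 109, 47.2, 70.0 and 70.3 in coacervate-treated libraries. Coacervate-treated replicate 1 and HA-treated replicate 1, high for most other members, were low for Ifit1, while healthy replicate 1 was high for both. Near copies in this family could share reads. No group difference was called for Ifit1, whose log2 fold change of osteoarthritic against healthy was -0.56 ± 0.94, or -2.02 without osteoarthritic replicates 2 and 3, of which replicate 2 was in the upper set.

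**Figure D5:**
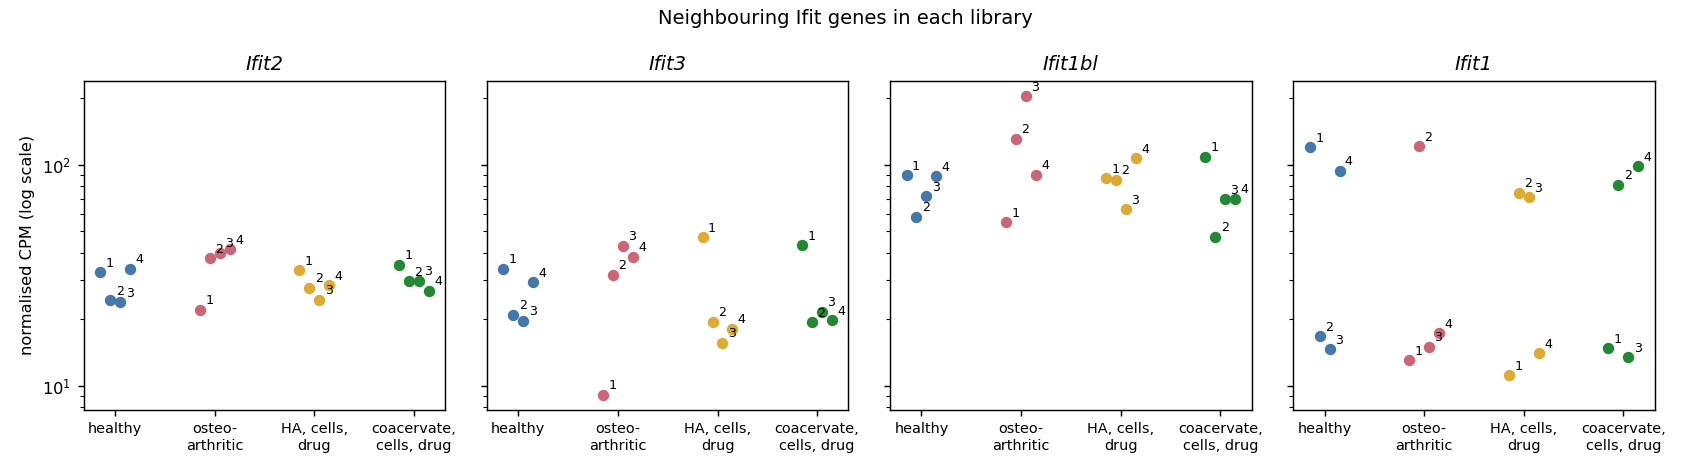
Normalised CPM (log axis) of Ifit2, Ifit3, Ifit1bl and Ifit1, which lie in this order along the chromosome, in each library (points, numbered by replicate; 4 libraries per group). Ifit1 forms an upper set of 7 and a lower set of 9 libraries, each with libraries of all 4 groups, and the other genes show no such gap.

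The remaining members also kept overlapping groups in every comparison. Among the effectors, Mx1 ranged from 9.01 to 31.96 CPM over the 16 libraries, Oas1a (an activator of the RNA-cutting enzyme RNase L) from 3.18 to 24.6, Oasl from 5.09 to 20.0, Oasl2 from 19.3 to 50.7 and Isg20 (an exonuclease) from 6.10 to 12.8. The sensors Ifih1 and Dhx58 ranged from 18.6 to 34.6 and from 4.36 to 18.5 CPM. Irf9 ranged from 56.9 to 104 CPM, Parp9 from 48.1 to 86.8, Parp14 from 37.3 to 96.4, Ifi44 from 11.7 to 23.1 and Ifi44l from 1.59 to 8.06. Parp9 and Parp14 are ADP-ribosyltransferase family proteins. Osteoarthritic replicate 1 held the lowest value of Irf9, Oas1a and Oasl, and coacervate-treated replicate 1 the highest.

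Beyond the members, 95 other genes of the pathway were listed and 75 of them were tested. None of the 75 passed in edgeR in any of the 6 comparisons, and those with an unadjusted p under 0.05 numbered 13 in osteoarthritic against healthy (17.8% of all tested genes), 6 in HA-treated (6.33%) and 15 in coacervate-treated against osteoarthritic (21.8%), 7 between the treated groups (10.4%), and 7 in HA-treated (8.25%) and 1 in coacervate-treated libraries (3.85%) against healthy. Of the 11 listed ligands 5 had a row under their symbol, and the other 6 were not analysed here. None of the 5 was expressed enough to be tested: the highest count in any library was 3 for Ifnb1, 4 for Ifna4, 6 for Ifng, 9 for Ifnk and 17 for Il27. In osteoarthritic against healthy cartilage the smallest p belonged to Irf2, a repressor that competes with Irf1, with a log2 fold change of -0.29 ± 0.092 (edgeR, adjusted p = 0.178). It was followed by Ifi35 (0.86 ± 0.28; edgeR, adjusted p = 0.187), the DNA sensor Aim2 (-0.60 ± 0.20; edgeR, adjusted p = 0.189) and the membrane protein Ifitm1 (0.67 ± 0.23; edgeR, adjusted p = 0.198). Without osteoarthritic replicates 2 and 3 these values were -0.16 for Irf2, 0.050 for Ifi35, -0.94 for Aim2 and 0.89 for Ifitm1, so that the difference in Ifi35 rested on those libraries. Of the 6 receptors 5 had fold changes above 0 there, with a median of 0.20, which was 0.11 by total counts, 0.075 in limma with pseudocount 0.1 and 0.15 without osteoarthritic replicates 2 and 3. Of the 5 JAK kinases and STATs, 0 were above 0 there (median -0.11), but 3 were without osteoarthritic replicates 2 and 3 (median 0.052). Sensors and adaptors, inhibitors and other induced genes had medians of -0.012, 0.016 and 0.014 there. In the same order these were -0.11, -0.076 and -0.10 by total counts, and 0.049, 0.16 and -0.027 without osteoarthritic replicates 2 and 3. In coacervate-treated against osteoarthritic cartilage the receptors were below 0 in 5 of 6, with a median of -0.15, which was -0.075 by total counts, -0.020 in limma (4 of 6 below 0 in both) and -0.18 without osteoarthritic replicates 2 and 3. Among them Ifngr2, a chain of the interferon gamma receptor named after its value was seen, had -0.46 ± 0.12 (edgeR, adjusted p = 0.103), or -0.25 without those libraries.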

How the data were processed

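RNA-seq of 16 libraries of rat knee cartilage was used. Per the labels' protocols, poly(A) RNA was sequenced as paired ends from libraries whose dUTP-marked strand was removed. Build rn6 and the tools HISAT2 2.2.1, cutadapt 1.9, StringTie 2.1.6, edgeR and DESeq2 are named in the submitters' processing notes. Their roles, the counting tool, the annotation and the strand setting are not given in the sources used here, so genes with near copies (the Ifit, Ifitm, Oas and Mx families) and overlapping genes are uncertain. Per the file headers, the deposited table holds a raw count and an FPKM value (the authors' scaling to gene length and depth) for each gene and library.

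A gene was tested if its FPKM reached 1 in 4 or more libraries. Counts were scaled with TMM and fitted with 4 group means in edgeR 4.0.16 (R 4.3.3, quasi-likelihood test), with Benjamini-Hochberg adjustment over all 14337 genes and a threshold of 0.05. Normalised CPM use the TMM-scaled library size, and a prior count of 2 was added for log2 levels. The edgeR procedure was tested on simulated counts with the same spread for every gene and no deviating libraries. These data differ from that, so the test does not show how well changes of the members would be found. Amplified copies could not be removed by molecular identifiers. The alternatives were other scalings (DESeq2 size factors, total counts, haemoglobin genes left out), filters, DESeq2 1.42.0, limma 3.58.1 on log2(FPKM + 1) and log2(FPKM + 0.1), only the libraries compared, a replicate block, and leaving out libraries. Given in full were, in each comparison, any member past the threshold and the 4 with the smallest p, and of the other pathway genes the 4 with the smallest p in osteoarthritic against healthy cartilage. Motifs were searched with python 3.11.15. The members and lists were chosen with earlier results of these data known.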

Additional observations from a re-analysis of the deposited data

Results flagged for a closer look

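In groups of 4 libraries, 1 library was set off from the other 3 by a gap that took up most of the group's range in 6 of 68 cases examined. Chance alone gives about 5% for independent groups. The cases share libraries and genes that vary together, so their share cannot be read against that figure. All values are log2 levels relative to the gene's mean over the 16 libraries. Osteoarthritic replicate 1 was the low library in 3 cases. Its mean relative level over the 33 members was -0.55, while the other 3 osteoarthritic libraries had 0.17 to 0.28. Xaf1 had -0.60 there (5.51 CPM), against 0.32 to 0.43 in the other 3, and Ifit2 had -0.45 (22.03 CPM), against 0.32 to 0.45. HA-treated replicate 1 was high for Ifi27, at 0.71 (63.1 CPM) against -0.38 to -0.25. HA-treated replicate 4 was high for Cmpk2, at 0.041 (66.0 CPM) against -0.26 to -0.21. Healthy replicate 1 was high for Usp18, at 0.043 (9.30 CPM) against -0.47 to -0.40.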

How the results depend on the processing

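The count of members called stayed at 0 in all 6 comparisons under other scalings, filters, limma, fits of only the libraries compared and the replicate block. It was 1 (Irf1) in coacervate-treated against osteoarthritic and 1 (Irf1) in coacervate-treated against HA-treated cartilage under DESeq2, and 1 (Irf1) in the latter without osteoarthritic replicates 2 and 3. Leaving out each library in turn gave 0 to 2 members called in coacervate-treated against osteoarthritic cartilage, the highest without osteoarthritic replicate 1, and 0 to 0 in the other 5 comparisons. Of 648 recomputed values for the members given in full in 24 pairings of member and comparison, 639 kept direction and side of the threshold, 6 newly passed and 3 turned: without osteoarthritic replicates 2 and 3, HA-treated against osteoarthritic gave -0.032 for Stat2 and 0.18 for Rtp4, and coacervate-treated against osteoarthritic 0.019 for Psmb9. Scaling shifted the median of all genes: against the edgeR fit with TMM by 0.11 (HA-treated against osteoarthritic) by total counts, and in limma with pseudocount 0.1 by -0.15 (osteoarthritic against healthy), 0.16 (HA-treated) and 0.12 (coacervate-treated against osteoarthritic). The members' median log2 fold change could change sign with the scaling and when libraries were left out. Without osteoarthritic replicates 2 and 3 it was -0.056 for osteoarthritic against healthy, and 0.020 for HA-treated and 0.14 for coacervate-treated against osteoarthritic. With 1 library left out at a time it ran from 0.034 to 0.26 for osteoarthritic against healthy, from -0.29 to 0.0013 for HA-treated and from -0.21 to 0.11 for coacervate-treated against osteoarthritic, from -0.053 to 0.23 for coacervate-treated against HA-treated, and from -0.12 to 0.081 for HA-treated and from -0.010 to 0.22 for coacervate-treated against healthy.

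The count of all genes called depended more on the processing, and the cause was not tested. For osteoarthritic against healthy (72) it was 29 by total counts, 45 without a filter, 418 in DESeq2, 21 and 28 in limma with pseudocounts 1 and 0.1, 8 with only the libraries compared and 164 without osteoarthritic replicates 2 and 3. For coacervate-treated against osteoarthritic (21) it was 0 by total counts, 0 with filterByExpr, 0 without a filter, 0 and 0 in limma, 0 with only the libraries compared, 797 in DESeq2 and 3 without osteoarthritic replicates 2 and 3. For HA-treated against healthy (23) it was 7 without a filter, 159 in DESeq2, 14 and 15 in limma, 390 with only the libraries compared and 94 without osteoarthritic replicates 2 and 3. From 0, DESeq2 gave 8 for HA-treated against osteoarthritic (limma 1 and 1), 325 for coacervate-treated against HA-treated (149 in edgeR without osteoarthritic replicates 2 and 3) and 18 for coacervate-treated against healthy. Leaving out each library in turn gave 15 to 1122 (osteoarthritic against healthy, highest without osteoarthritic replicate 1), 0 to 1 (HA-treated against osteoarthritic), 0 to 2054 (coacervate-treated against osteoarthritic, highest without osteoarthritic replicate 1), 0 to 11 (coacervate-treated against HA-treated), 0 to 37 (HA-treated against healthy) and 0 to 1 (coacervate-treated against healthy).

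The replicate numbers did not pair the libraries: over 24 pairs with the same number in different groups, deviations from the group means correlated at -0.39 to 0.21, 4 of them over 0.1, and 1 of 16 libraries correlated best with its own number. With the replicate block, 26 genes were called for osteoarthritic against healthy, 0 for coacervate-treated against osteoarthritic and 0 for HA-treated against healthy, and 0 members in any comparison.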
